A study of Mus musculus with 39 samples.

Results

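The comparison described here asked whether chronic intermittent hypoxia (CIH) moved the microglial transcriptome differently in 5XFAD and wildtype (WT) male mice. It used the 20 libraries of the 8-month cohort out of 39 in the series, and 15813 of the 54532 genes in the male count table, those above 1 CPM in at least 3 libraries. CPM is the count of a gene relative to the scaled total of its library. For every gene the CIH minus normoxia (NX) difference in WT was subtracted from the same difference in 5XFAD, and the result is called the interaction. A positive interaction means that the CIH effect was more positive, or less negative, in 5XFAD than in WT. All differences are on the log2 scale and are given ± the standard error of the fit.

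The 4 groups, 5XFAD CIH, 5XFAD NX, WT CIH and WT NX, held 5 libraries each, all from male mice of 8 months whose exposure began at 4 months. CIH alternated 6.5% and 21% O2 at intervals of 90 s for 8 h per day, as the labels give it (the study's methods state another low oxygen level and another daily period), and NX mice were kept at 21% O2 under otherwise like handling. RNA came from cells of the cerebrum that were captured with magnetic beads against CD11b, a surface protein of microglia and other myeloid cells. 5XFAD mice are a transgenic model of Alzheimer's disease with early amyloid deposits, in which the transgenes are driven in neurons, so amyloid reaches the microglia from outside. Both genotypes share the sex, the age and the isolation procedure. The labels number the libraries but do not say that each came from a separate mouse. The study's methods give 5 independent samples per group, without saying there that each is a single mouse. The tests therefore measure the spread between libraries, part of which may be technical.

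Microglia are the resident macrophages of the brain. Beside amyloid plaques they lower homeostatic genes such as Tmem119 and P2ry12 and take on a disease-associated (DAM) program whose later stage needs the receptor Trem2 and its adaptor Tyrobp, with high Apoe, Cst7 and lysosomal genes. Intermittent hypoxia models the repeated desaturation of sleep apnea, and cells answer low oxygen through hypoxia-inducible factor (HIF), a transcription factor that is stabilized when oxygen falls.

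The libraries held 13457293 to 23095627 counts, so 1 CPM stood for 13 to 23 reads. The microglial label held in every library, with Tmem119 at 961 CPM or more, and Cst7, a DAM gene, separated the genotypes, at 9.26 to 27.0 CPM in WT and 1850 to 5450 CPM in 5XFAD. The libraries 5XFAD NX 4 and 5 stood apart from NX 1 to 3. On the leading principal component, which held 34.6% of the variance, they were at -1.9 and -3.6, against 78.8 to 80.1 for the other 3 5XFAD NX libraries. Their lincRNA, antisense and to-be-curated (TEC) transcripts took 0.891% and 0.907% of counts, against 0.475% to 0.479% in NX 1 to 3, 0.440% to 0.592% in 5XFAD CIH and 0.909% to 1.015% in WT CIH. The interactions that the results turn on are therefore given with all 20 libraries and again without these 2, an alternative chosen after the data were seen. Since the isolates are bulk samples, fewer cells of a type and less RNA per cell cannot be told apart.

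No gene passed a false discovery rate of 0.05 with a log2 difference beyond 1 in the edgeR quasi-likelihood test, for the interaction (0% of genes called), for CIH in WT (0%) or for CIH in 5XFAD (0%). The smallest adjusted p was 0.117 for the interaction, 0.0594 for CIH in WT and 0.803 for CIH in 5XFAD. At an unadjusted p below 0.05 the interaction held 3857 genes, or 24.4%, of which 1937 were positive (12.2%) and 1920 negative (12.1%), and with library size scaling alone 1358 were positive and 2847 negative. CIH in WT held 4491 genes at that level, with 2104 higher (13.3%) and 2387 lower (15.1%) under CIH. The larger side turned with library size scaling alone, at 2543 higher and 1856 lower, and without WT NX 4, at 1931 and 1610. CIH in 5XFAD held 785, with 294 higher (1.86%) and 491 lower (3.11%). Without 5XFAD NX 4 and 5 it held 1835, and the larger side turned, with 1191 higher (7.62%) and 644 lower (4.12%). It held 1242 without NX 1 and 1312 without NX 3. The edgeR likelihood ratio test, which does not carry the uncertainty of each gene's spread into the p-value, called 95 positive (0.601%) and 80 negative (0.506%) interactions, and DESeq2 called 257 and 124. The likelihood ratio test called 225 genes for CIH in WT, DESeq2 called 183, and neither called any in 5XFAD.

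Interactions at that level went mostly with a CIH difference in WT. Among the 1937 positive interactions, 1489 (76.9%) reached an unadjusted p below 0.05 for CIH in WT but not in 5XFAD, 99 (5.11%) in 5XFAD but not in WT, 50 in both with opposite signs and 299 in neither. Their median CIH difference was -0.54 in WT and 0.22 in 5XFAD. Among the 1920 negative interactions, 1337 (69.6%) reached that level in WT alone, 164 (8.54%) in 5XFAD alone, 62 in both with opposite signs and 357 in neither, with medians of 0.53 in WT and -0.23 in 5XFAD. The CIH difference was larger in size in WT for 89.5% of the positive and 83.1% of the negative set, against 69.0% of all genes tested. Over all genes tested, 27.3% reached the level in WT alone and 3.86% in 5XFAD alone. These shares describe sets that the interaction itself selected.

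Leaving out 5XFAD NX 4 and 5 changed the 5XFAD side and left the WT side as it was. The median 5XFAD difference of the positive set went from 0.22 to -0.05 and that of the negative set from -0.23 to 0.13, so the median interaction shrank from 0.76 to 0.48 and from -0.75 to -0.35. All 1937 positive interactions and 1859 of the 1893 negative interactions still tested kept their sign. Of all 15640 genes tested without 5XFAD NX 4 and 5, 13074 kept theirs. Both sets were selected by the interaction with these libraries included, and the WT side is shared by both fits. The kept signs are therefore no independent check of the interactions. With the remaining libraries the quasi-likelihood test again called no interaction, now with 1619 genes at an unadjusted p below 0.05, 1019 positive (6.52%) and 600 negative (3.84%) out of 15640 tested, while the likelihood ratio test called 1. Leaving out 5XFAD NX 1 alone gave 478 quasi-likelihood calls for the interaction, 296 positive and 182 negative. The fit without NX 4 and 5 called 307 genes for CIH in WT, 187 higher and 120 lower, and 3609 genes passed the false discovery rate regardless of size. Both WT groups are complete in that fit, which differs in the spread that the genes are given. The plot of the CIH difference in each genotype shows this shift along the 5XFAD axis.

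**Figure D1:**
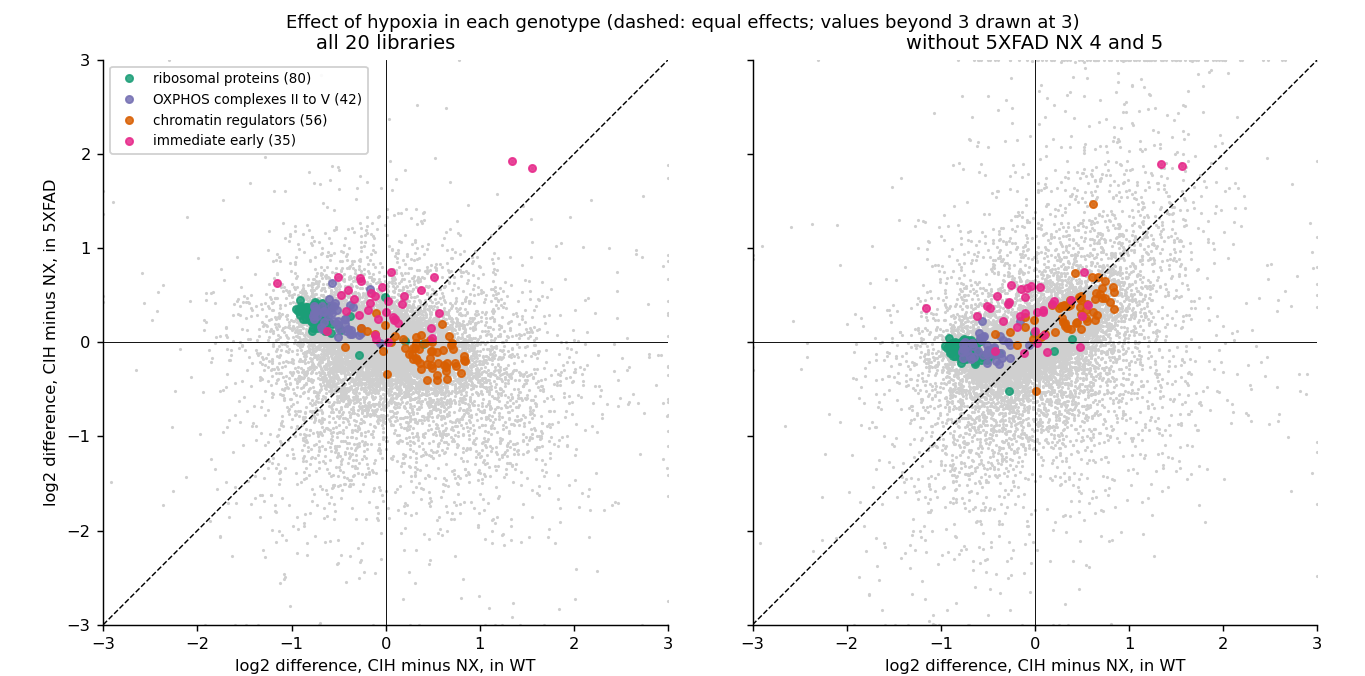
Each point is a gene, with its CIH minus NX difference (log2) in WT on the x axis and in 5XFAD on the y axis, from 20 libraries (left) and without 5XFAD NX 4 and 5 (right), and differences past ±3 drawn at ±3. Ribosomal protein and oxidative phosphorylation genes lie mostly left of 0 in WT in both panels, with a median of -0.73 for ribosomal proteins, and move from above 0 toward 0 on the 5XFAD axis when the 2 libraries are left out, where their median goes from 0.28 to -0.09.

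WT CIH was also the group that stood alone most often. Its 5 libraries were all below the other 15 in 498 genes and all above them in 266. The same counts were 56 below and 90 above for WT NX, 6 below and 4 above for 5XFAD NX, and 12 below and 12 above for 5XFAD CIH. Within WT, CIH libraries lay below all NX libraries in 1356 genes (8.58% of those tested) and above all of them in 1241 (7.85%). Within 5XFAD, the CIH libraries lay below all NX libraries in 83 genes (0.525%) and above them in 42 (0.266%). The 5XFAD NX range includes NX 4 and 5, and against NX 1 to 3 alone the CIH libraries lay below in 449 genes (2.84%) and above in 465 (2.94%), a comparison with fewer NX libraries than that in WT.

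Since the quasi-likelihood test called no gene (the likelihood ratio test called 175 and DESeq2 381), the genes leading each direction were taken by smallest p among protein-coding genes with a mean of at least 10 CPM, after the values were seen. The 8 positive leaders were Mrgpre, Capg, Cd52, Gins4, Lsp1, Ccl6, Bmyc and Gpr65, all at an adjusted p of 0.117 for the interaction. Mrgpre, a Mas-related G protein-coupled receptor at chr7:143778363-143784500 (GRCm38), was at 9.97, 10.2, 11.3, 12.2 and 9.77 CPM in WT NX and at 7.83, 7.06, 6.68, 6.48 and 5.77 CPM in WT CIH. In 5XFAD it was at 40.2, 43.5, 39.2, 35.7 and 30.9 CPM in NX and at 39.4, 56.1, 41.2, 42.3 and 49.6 CPM in CIH. The WT groups did not overlap and the 5XFAD groups did. The CIH difference was -0.66 ± 0.13 in WT and 0.27 ± 0.12 in 5XFAD, the interaction was 0.93 ± 0.18, and it was 0.81 without 5XFAD NX 4 and 5.

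Capg, which caps actin filaments at chr6:72544391-72562983, showed the same arrangement. It was at 43, 54.4, 40.8, 43.2 and 54.2 CPM in WT NX and at 27.6, 24.6, 16.5, 26.6 and 21.4 CPM in WT CIH. The 5XFAD NX libraries were at 312, 207, 312, 170 and 141 CPM, and the 5XFAD CIH libraries at 270, 227, 287, 316 and 428 CPM. Every WT CIH library was below every WT NX library, whereas in 5XFAD NX 2, 4 and 5 were below all the CIH libraries and NX 1 and 3 were among them. The interaction was 1.44 ± 0.29 (adjusted p = 0.117), made of -1.01 ± 0.21 in WT and 0.42 ± 0.20 in 5XFAD, and 1.15 without the 2 libraries. In that smaller fit the CIH difference in WT had an adjusted p of 0.000859.

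Cd52, a small surface glycoprotein of leukocytes on chromosome 4, was at 71.6, 65, 70.6, 99.5 and 87.3 CPM in WT NX and at 58.2, 41.8, 43, 36.6 and 35.2 CPM in WT CIH. Its 5XFAD levels were 373, 321, 378, 190 and 175 CPM in NX and 328, 300, 394, 481 and 686 CPM in CIH. WT again separated without overlap, and 5XFAD CIH 5 held the highest level of all. The interaction was 1.48 ± 0.33 (adjusted p = 0.117), and 1.17 without 5XFAD NX 4 and 5. Lsp1, an actin-binding protein of leukocytes, was at 145 to 173 CPM in WT NX and 86.8 to 105 CPM in WT CIH, and at 165 to 289 CPM in 5XFAD NX and 239 to 309 CPM in 5XFAD CIH. Its interaction was 0.89 ± 0.20 and 0.64 without the 2 libraries.

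The other 4 leaders pointed the same way. Ccl6, a chemokine of myeloid cells, had an interaction of 1.13 ± 0.27, with -0.85 ± 0.19 in WT and 0.28 ± 0.19 in 5XFAD. Gpr65, a proton-sensing receptor, had 0.94 ± 0.23, with -0.69 ± 0.17 and 0.26 ± 0.16. Bmyc, a relative of Myc, had 1.40 ± 0.33, with -0.85 ± 0.23 and 0.54 ± 0.23, and Gins4, a subunit of the replicative helicase, had 1.01 ± 0.23, with -0.54 ± 0.16 and 0.47 ± 0.16. With 5XFAD NX 4 and 5 left out, these 4 interactions were 0.88, 0.84, 1.06 and 0.81, all in the same direction.

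**Figure D2:**
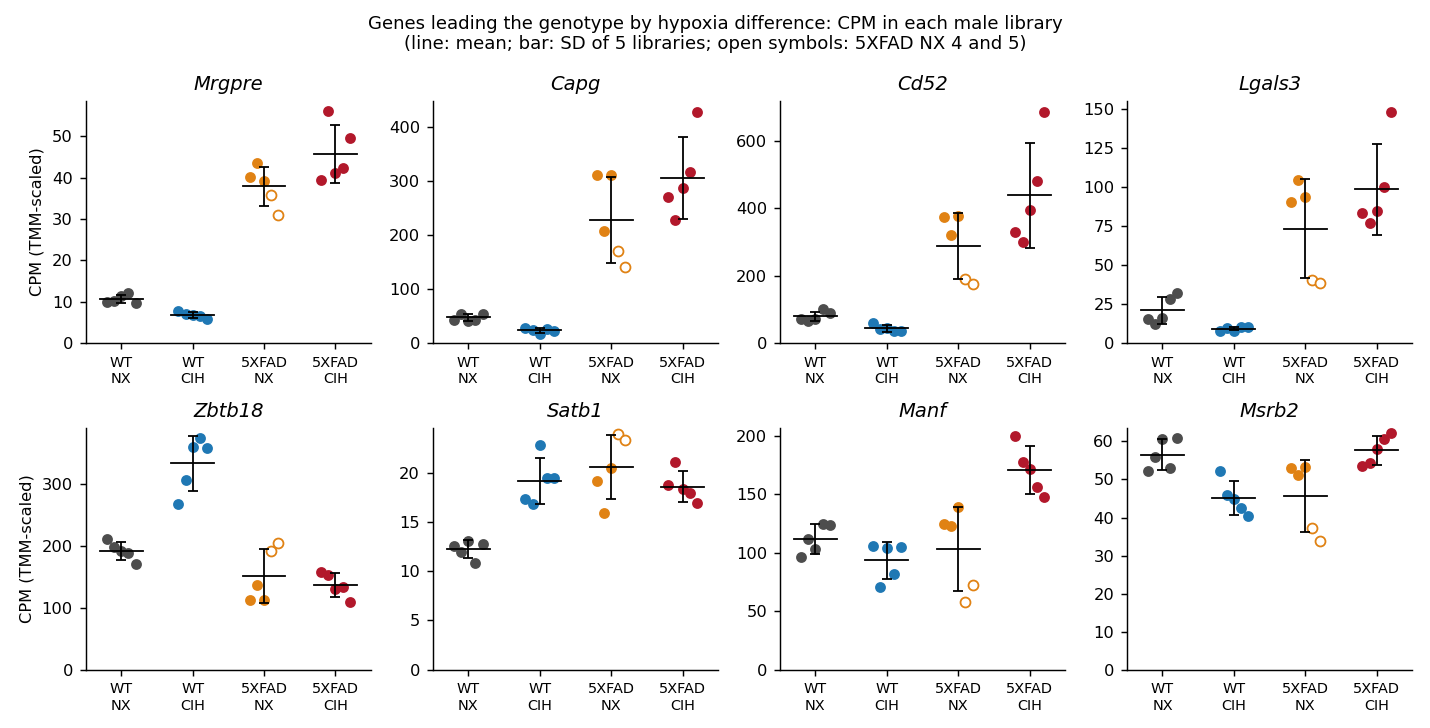
CPM (y axis) of Mrgpre, Capg, Cd52, Lgals3, Zbtb18, Satb1, Manf and Msrb2 in each library of the 4 groups (x axis), with the group mean as a line and the SD as a bar, and open symbols for 5XFAD NX 4 and 5. Capg was between 16.5 and 27.6 CPM in WT CIH, below all WT NX libraries, whereas Manf was at 148 to 200 CPM in 5XFAD CIH, above all 5XFAD NX libraries.

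The DNA before the start sites of Mrgpre, Lgals3 (a DAM gene described next) and Zbtb18 (the leading repressor among negative interactions) is printed to show what the promoters of genes at both ends look like in terms of the core element bound by HIF. Capitals mark ACGTG or GCGTG on either strand, the remaining bases are in lower case, and each run is the 250 bases before the start, read 5′ to 3′ on the gene's strand, from RefSeq on GRCm38.p6. The Mrgpre run covers chr7:143784501-143784750 on the minus strand, that of Lgals3 chr14:47373610-47373859 on the plus strand, and that of Zbtb18 chr1:177442101-177442350 on the plus strand.
Mrgpre: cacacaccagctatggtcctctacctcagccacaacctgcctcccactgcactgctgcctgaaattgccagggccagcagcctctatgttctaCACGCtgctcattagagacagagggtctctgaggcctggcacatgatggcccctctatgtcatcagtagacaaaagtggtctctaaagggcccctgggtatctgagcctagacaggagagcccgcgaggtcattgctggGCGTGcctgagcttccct
Lgals3: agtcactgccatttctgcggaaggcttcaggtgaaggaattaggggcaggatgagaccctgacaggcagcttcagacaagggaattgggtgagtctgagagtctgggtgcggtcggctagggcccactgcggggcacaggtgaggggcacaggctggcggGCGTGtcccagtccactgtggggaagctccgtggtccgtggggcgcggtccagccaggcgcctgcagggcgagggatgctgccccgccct
Zbtb18: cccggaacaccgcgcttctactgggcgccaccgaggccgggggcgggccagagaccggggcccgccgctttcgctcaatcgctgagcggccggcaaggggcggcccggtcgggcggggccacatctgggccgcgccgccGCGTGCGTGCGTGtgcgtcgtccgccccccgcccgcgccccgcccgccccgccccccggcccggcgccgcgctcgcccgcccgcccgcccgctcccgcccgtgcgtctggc
They hold 2, 1 and 3 matches, and the 3 of Zbtb18 follow each other with a shared base. The RefSeq start of Lgals3 used here lies inside the longer gene model of the count table. The same windows of Capg and Rplp0 hold 0. Promoter windows of 300 bases, reaching 50 bases past the start, matched 10883 of the 15809 gene symbols tested. ACGTG or GCGTG was present in 59.6% of all these windows, in 63.4% of those of positive interactions and in 61.1% of those of negative interactions, so the shares of both sets were close to that of all genes. Of the windows of ribosomal protein genes 68.6% held a match, and of those of HIF targets 80.0%. CACGTG, which overlaps ACGTG, was in 9.61% of all windows, 11.5% of the positive and 9.33% of the negative set.

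DAM genes had a positive median interaction, with 35 members above 0 and 3 below. Of the 38 members, 26 were positive and 0 negative at an unadjusted p below 0.05, against 12.2% and 12.1% of all genes. The quasi-likelihood test called 0 of them and the likelihood ratio test 6, where it called 0.601% of all genes as positive. The median interaction was 0.71, against -0.04 for all genes tested, with medians of -0.52 for CIH in WT and 0.23 in 5XFAD. In 19 members, beside 8.58% of all genes, all WT CIH libraries lay below all WT NX libraries. Without 5XFAD NX 4 and 5 the median interaction was 0.51 and the 5XFAD median 0.00, and without 5XFAD CIH 5 they were 0.57 and 0.05. The list also differed by genotype, as the DAM program is defined in amyloid models. Its median 5XFAD minus WT difference was 2.21 under NX and 2.97 under CIH.

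Lgals3, which encodes galectin-3, a sugar-binding protein of activated macrophages, was at 15.6, 12.1, 15.7, 28.4 and 32.2 CPM in WT NX and at 7.83, 9.73, 7.91, 9.91 and 9.93 CPM in WT CIH. In 5XFAD mice it was at 90.4, 104, 93.3, 40.3 and 38.1 CPM in NX and at 83.2, 76.6, 84.2, 100 and 148 CPM in CIH. The WT groups were apart, and in 5XFAD only NX 4 and 5 were outside the range of CIH on the low side. The interaction was 1.62 ± 0.41 (adjusted p = 0.117), with -1.19 ± 0.30 in WT and 0.43 ± 0.28 in 5XFAD, and 1.23 without the 2 libraries.

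Apoe, the main lipid carrier of the brain, was at 2420, 1450, 1900, 2590 and 3140 CPM in WT NX and at 1250, 1410, 1430, 1350 and 1440 CPM in WT CIH. The 5XFAD levels were 25500, 23000, 33700, 15200 and 14300 CPM in NX and 28400, 20100, 24800, 26100 and 43800 CPM in CIH. All WT CIH libraries were below all WT NX libraries, and the 5XFAD groups overlapped. Its interaction was 1.10 ± 0.32 (adjusted p = 0.117), and 0.81 without 5XFAD NX 4 and 5. Cst7, a cystatin that inhibits lysosomal proteases, was at 17.9 to 27 CPM in WT NX and 9.26 to 13.8 CPM in WT CIH, and its interaction was 1.20 ± 0.32, or 0.91.

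The receptors and adaptors of the program varied in size. Trem2, the lipid receptor needed for the full program, ranged over 1930 to 2330 CPM in WT NX and 1330 to 1550 CPM in WT CIH, with an interaction of 0.78 ± 0.28, and 0.46 without 5XFAD NX 4 and 5. Its adaptor Tyrobp had 1.19 ± 0.32, the tetraspanin Cd9 0.74 ± 0.21, and the beta-glucan receptor Clec7a 0.49 ± 0.17, and without the 2 libraries these were 0.88, 0.50 and 0.48. The members Axl and Spp1 were nearer 0 on the WT side: the receptor Axl had -0.15 ± 0.14 in WT and an interaction of 0.18 ± 0.20 (0.29 without the 2 libraries), and the secreted phosphoprotein Spp1 had -0.18 ± 0.36 in WT and 0.69 ± 0.49 (0.53). Complement C1qb, outside the list, was at 4820 to 6520 CPM in WT NX and 2850 to 3400 CPM in WT CIH, with an interaction of 1.07 ± 0.30 and 0.73.

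Homeostatic microglial genes had a median of 0.22, and its difference from that of the DAM genes was not tested. Of 30 members, 8 were positive and 1 negative at an unadjusted p below 0.05, where all genes were at 12.2% and 12.1%, with CIH medians of -0.16 in WT and 0.03 in 5XFAD. The median interaction was 0.05 when counts were scaled by library size alone, where that of all genes tested went from -0.035 to -0.211. Tmem119 was at 3320, 3980, 3420, 3930 and 3850 CPM in WT NX and at 2790, 2620, 2830, 2400 and 2230 CPM in WT CIH, without overlap. Among 5XFAD libraries it was at 2230, 1530, 1880, 1130 and 961 CPM in NX and 1500, 1450, 1710, 1770 and 2110 CPM in CIH, with overlap, and the interaction was 0.67 ± 0.24 (adjusted p = 0.127), or 0.39 without NX 4 and 5, which held the 2 lowest levels. P2ry12, an ADP receptor that steers microglial processes, had an interaction of 0.18 ± 0.14, or 0.26 without them, with -0.15 ± 0.10 in WT.

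Genes of the translation machinery had, among the lists other than the markers, the largest share of members positive at an unadjusted p below 0.05. Of the 80 cytosolic ribosomal protein genes, 74 were positive and 0 negative, against 12.2% and 12.1% of all genes, and the likelihood ratio test called 15. Their median interaction was 1.01, from -0.73 in WT and 0.28 in 5XFAD. In 66 of them every WT CIH library was below every WT NX library, as in 8.58% of all genes. Rplp0, of the ribosomal stalk, was at 626, 738, 775, 935 and 845 CPM in WT NX and at 474, 467, 438, 436 and 457 CPM in WT CIH. In 5XFAD it was at 2230, 2020, 2200, 1080 and 967 CPM in NX and 1610, 1500, 1710, 1850 and 2560 CPM in CIH. WT CIH libraries lay within a narrow band below all WT NX libraries, whereas 5XFAD NX 1 to 3 lay within the range of CIH and NX 4 and 5 below it. The interaction of Rplp0 was 0.91 ± 0.28 (adjusted p = 0.117), that of Rpl32 1.25 ± 0.32 and that of Rps25 1.22 ± 0.32. They were 0.57, 0.88 and 0.85 without NX 4 and 5. Ribosomal protein genes have many processed pseudogenes, so some reads may have been assigned between copies.

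With 5XFAD NX 4 and 5 left out, the median ribosomal protein interaction was 0.63 and the 5XFAD median -0.09. In the mean log2 CPM of these genes, the WT NX libraries were at 7.748, 7.745, 7.778, 8.270 and 8.023, and the WT CIH libraries at 7.316, 7.196, 7.257, 7.152 and 7.226. The 5XFAD NX libraries were at 9.272, 9.224, 9.321, 8.145 and 8.004, and the 5XFAD CIH libraries at 8.907, 8.687, 9.107, 9.283 and 9.697. The WT groups were apart, and NX 4 and 5 set the low end of 5XFAD while CIH 5 set the high end. Without 5XFAD CIH 5 the median interaction was 0.85 and the 5XFAD median 0.11.

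**Figure D3:**
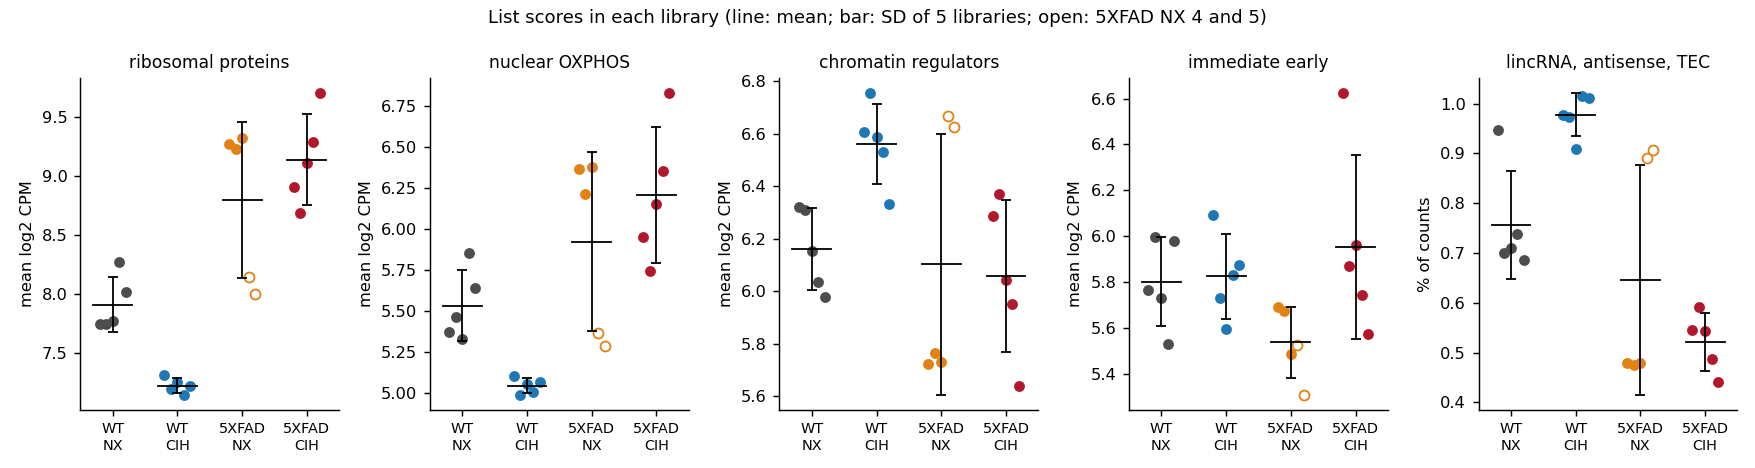
Mean log2 CPM of ribosomal protein, nuclear OXPHOS, chromatin and immediate early genes, and the percent of counts in lincRNA, antisense and TEC genes (y axes), per library in the 4 groups (x axis), with open symbols for 5XFAD NX 4 and 5 and the mean and SD of each group. For ribosomal proteins WT CIH lies at 7.152 to 7.316, below WT NX at 7.745 to 8.270, and 5XFAD NX 4 and 5 lie at 8.145 and 8.004, away from NX 1 to 3 at 9.224 to 9.321.

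Oxidative phosphorylation (OXPHOS), the respiratory chain and ATP synthase, pointed the same way as the ribosome. Complex I, which oxidizes NADH, had 24 of 38 nuclear-encoded members positive at an unadjusted p below 0.05 (12.2% of all genes) and 0 negative, with a median interaction of 0.82 (-0.51 in WT, 0.27 in 5XFAD). Complexes II to V had 34 of 42 positive and 0 negative, with 0.84 (-0.55 and 0.26). Without 5XFAD NX 4 and 5, 12 and 21 were positive at that level, against 6.52% of all genes. The 2 medians were then 0.48 and 0.49, with 5XFAD medians of -0.09 and -0.07. Without 5XFAD CIH 5 both 5XFAD medians were 0.07. Atp5b, the catalytic subunit of ATP synthase, was at 295, 347, 376, 353 and 353 CPM in WT NX and at 243, 256, 246, 232 and 247 CPM in WT CIH. Its 5XFAD libraries were at 302 to 523 CPM in NX and 434 to 537 CPM in CIH, overlapping where WT did not. The interaction was 0.64 ± 0.18 (adjusted p = 0.117), or 0.41 without NX 4 and 5.

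The 13 protein genes of the mitochondrial genome had a median interaction of 0.68, with 12 above 0 and 1 below. At an unadjusted p below 0.05, 7 were positive and 0 negative, against 12.2% and 12.1% of all genes. Without 5XFAD NX 4 and 5, 4 were positive, against 6.52% of all genes in that fit. Here the 5XFAD median was 0.05 and became -0.26 without NX 4 and 5, beside -0.64 in WT, so that by median both genotypes were then lower under CIH, and it was -0.14 without 5XFAD CIH 5. The cytochrome oxidase subunit mt-Co1 was at 3810 to 5160 CPM in WT NX, 3150 to 3770 in WT CIH, 6590 to 9040 in 5XFAD NX and 7010 to 7710 in 5XFAD CIH, with an interaction of 0.25 ± 0.15 (adjusted p = 0.314), or 0.10 without the 2 libraries. Proteasome subunits had 20 of 37 positive at an unadjusted p below 0.05, again beside 12.2% of all genes, and 0 negative. Their median was 0.52 (-0.38 in WT, 0.15 in 5XFAD). Without the 2 libraries it was 0.26, and 7 were positive at that level, against 6.52%. The 5XFAD median was 0.06 without NX 5 alone.

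Degradation and antigen presentation genes had positive medians, with differing shares of members at an unadjusted p below 0.05, where 12.2% of all genes were positive. Lysosomal genes had 22 of 43 positive and 0 negative, with a median interaction of 0.41 (-0.28 in WT, 0.10 in 5XFAD). MHC class II genes, which present peptides to CD4+ T cells, had 7 of 10 positive and a median of 0.79 (-0.67 and 0.15). MHC class I and immunoproteasome genes had 4 of 17 positive and a median of 0.44. With 5XFAD NX 4 and 5 left out, these medians were 0.19, 0.47 and 0.13. In that fit 12, 2 and 1 members were positive at that level, against 6.52% of all genes, and the 1 of 17 class I genes was near that share. The 5XFAD medians of the lysosomal and class II genes ran from 0.03 to 0.16 and from 0.02 to 0.35 as single libraries were left out. Cd74, the invariant chain of MHC class II, was at 613, 321, 624, 785 and 934 CPM in WT NX and 319, 341, 397, 365 and 329 CPM in WT CIH. In 5XFAD mice it was at 3120, 1450, 1720, 664 and 924 CPM in NX and 1440, 1440, 2400, 1500 and 2550 CPM in CIH. Both genotypes overlapped between NX and CIH, and its interaction was 1.15 ± 0.44 (adjusted p = 0.136), or 0.74 without NX 4 and 5.

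**Figure D4:**
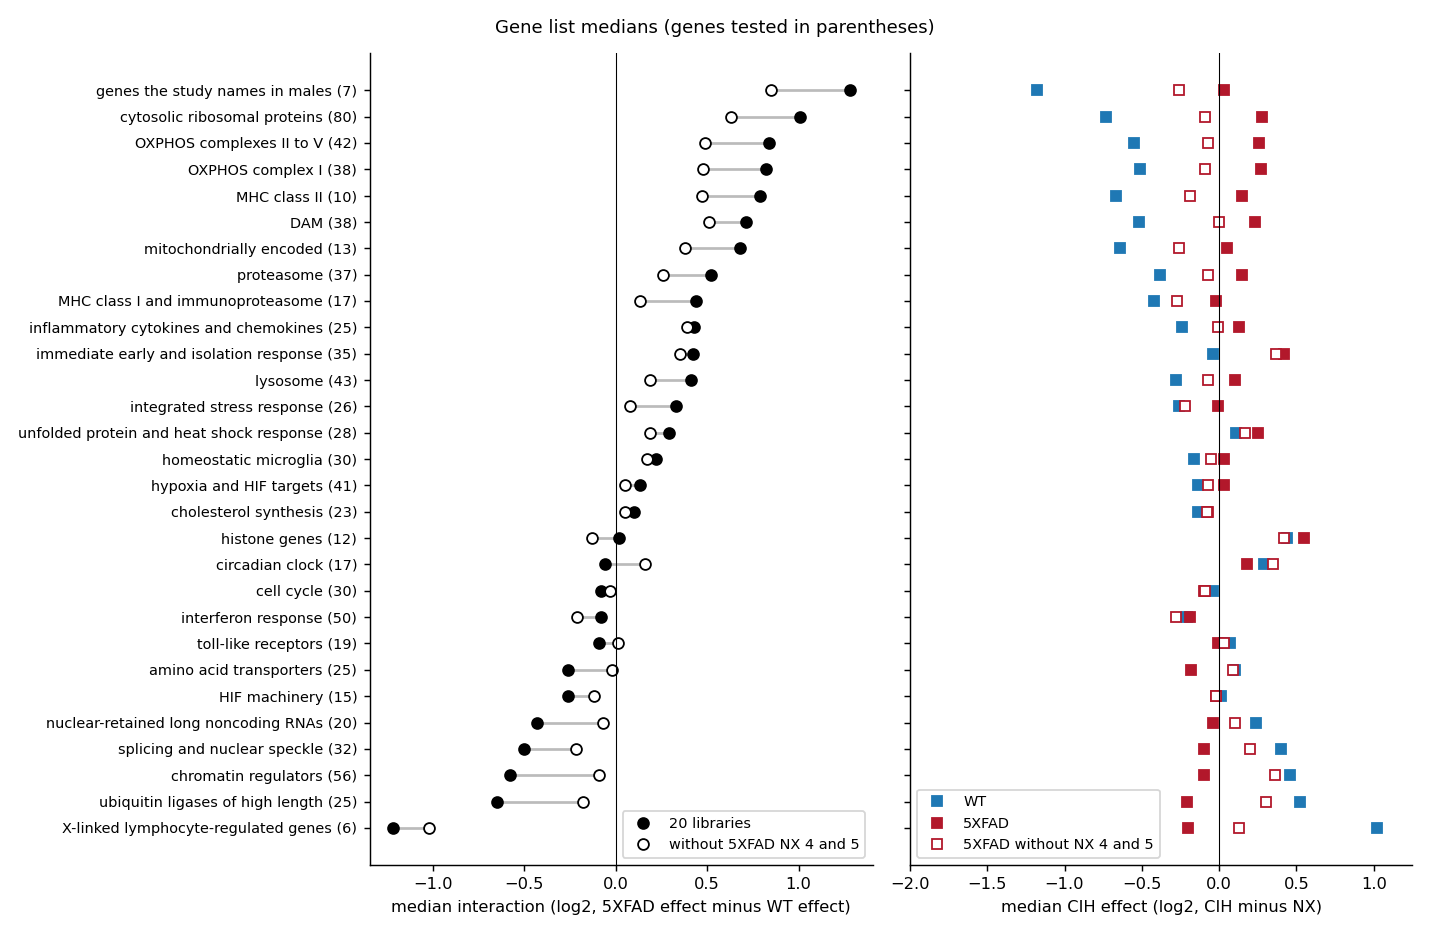
Median interaction of 29 gene lists (left, log2, filled with 20 libraries and open without 5XFAD NX 4 and 5) and median CIH difference in each genotype (right, log2), with the number of genes tested in parentheses. Ribosomal proteins are at 1.01 and 0.63, and chromatin regulators at -0.58 and -0.09, nearly at 0 without the 2 libraries.

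The 8 negative leaders were Styx, Satb1, Zbtb18, Ccp110, Wdr3, Mob1b, Ankrd28 and Usp28, also at an adjusted p of 0.117. Zbtb18, a zinc finger transcriptional repressor at chr1:177442351-177450764, was at 211, 199, 191, 189 and 170 CPM in WT NX and at 268, 307, 359, 374 and 358 CPM in WT CIH. Among 5XFAD libraries it was at 113, 137, 113, 192 and 204 CPM in NX and at 158, 153, 131, 133 and 109 CPM in CIH. All WT CIH libraries were above all WT NX libraries, and 5XFAD NX 4 and 5 were above every 5XFAD CIH library. The interaction was -0.95 ± 0.22, with 0.80 ± 0.15 in WT and -0.15 ± 0.15 in 5XFAD, and -0.62 without the 2 libraries.

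Satb1, an organizer of chromatin loops at chr17:51736187-51833290, was at 12.5, 11.9, 13.1, 10.8 and 12.8 CPM in WT NX and at 17.3, 16.8, 22.8, 19.4 and 19.4 CPM in WT CIH. The 5XFAD libraries were at 19.1, 15.9, 20.5, 23.9 and 23.3 CPM in NX and 18.7, 21.1, 18.3, 17.9 and 16.9 CPM in CIH. WT separated without overlap and 5XFAD did not. Of the leaders in this direction Satb1 kept -0.64 of -0.79 ± 0.18 without the 2 libraries. Styx, a catalytically inactive phosphatase, was at 6.73 to 9.82 CPM in WT NX and 12.2 to 17.3 CPM in WT CIH. In 5XFAD, Styx was at 7.36, 7.57, 7.36, 16 and 15.7 CPM in NX and 8.43, 8.3, 6.91, 5.9 and 5.91 CPM in CIH, so NX 4 and 5 were within the range of WT CIH. Its interaction was -1.41 ± 0.32, and -0.87 without them.

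The other 5 leaders are given with 20 libraries and then without 5XFAD NX 4 and 5. Ccp110, a centriolar protein, had -1.14 ± 0.27 and -0.70 without the 2 libraries. Wdr3, a factor of small ribosomal subunit assembly, had -0.83 ± 0.20 and -0.62, and Mob1b, a kinase activator of the Hippo pathway, -0.95 ± 0.23 and -0.60. Ankrd28, a regulatory subunit of protein phosphatase 6, had -1.22 ± 0.29 and -0.83, and Usp28, a deubiquitinase, -0.88 ± 0.21 and -0.62.

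Negative interactions also covered lists of long genes. Chromatin regulators, which modify or remodel histones, had a median length of 13663 bases, against 3851 for all genes tested. Of 56 members, 50 were below 0 and 6 above, with a median of -0.58 (0.46 in WT, -0.10 in 5XFAD). At an unadjusted p below 0.05, 25 were negative, against 12.1% of all genes, and 0 positive. Large ubiquitin ligases had 15 of 25 negative at that level and a median of -0.65 (0.52 and -0.21). Splicing and nuclear speckle genes had 22 of 32 negative at that level and a median of -0.50 (0.40 and -0.10). Without 5XFAD NX 4 and 5 these medians were -0.09, -0.18 and -0.22, and 1, 2 and 5 members were negative at that level, against 3.84% of all genes. The 5XFAD medians then became 0.36, 0.30 and 0.20, of the same sign as in WT. Leaving out only 1 of the 2 libraries gave 0.04 for chromatin regulators (without NX 4), and -0.02 and 0.05 for the other lists (without NX 5).

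Herc1, a giant ubiquitin ligase, was at 86.8, 79.1, 64.6, 62.2 and 54.7 CPM in WT NX and 110, 155, 134, 122 and 104 CPM in WT CIH. In 5XFAD it was at 56.8, 46.1, 46.3, 134 and 117 CPM in NX and 63.1, 70.7, 61.7, 65.6 and 41.8 CPM in CIH. The WT groups did not overlap, and the levels of 5XFAD NX 4 and 5 were in the range of WT CIH. Its interaction was -1.25 ± 0.35 (adjusted p = 0.117) and -0.57 without those 2. Ep300, a histone acetyltransferase that HIF recruits, was at 118 to 158 CPM in WT NX and 187 to 280 CPM in WT CIH, with an interaction of -0.72 ± 0.31 and -0.18.

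Malat1, a long noncoding RNA of nuclear speckles at chr19:5795690-5802672, turned on these 2 libraries. It was at 925, 558, 379, 430 and 320 CPM in WT NX and at 1160, 997, 1280, 1340 and 863 CPM in WT CIH. In 5XFAD mice it was at 195, 145, 139, 1640 and 1420 CPM in NX and at 456, 524, 306, 237 and 125 CPM in CIH. The 5XFAD NX libraries 4 and 5 were above every other library, NX 1 to 3 were at the low end of 5XFAD CIH, and the WT groups overlapped through NX 1 and CIH 5. The interaction was -2.21 ± 0.80 (adjusted p = 0.127) with 20 libraries and -0.07 without these 2, where CIH in 5XFAD was 1.04, beside 1.11 in WT. Of the 20 nuclear-retained noncoding RNAs tested, 12 were below 0 and 8 above. At an unadjusted p below 0.05, 7 were negative and 3 positive, against 12.1% and 12.2% of all genes. Without 5XFAD NX 4 and 5 these counts were 0 and 1, against 3.84% and 6.52%. The median was -0.43, -0.07 without 5XFAD NX 4 and 5, and -0.23 without WT CIH 5.

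A smaller group of positive interactions lay on the 5XFAD side. Immediate early and isolation response genes, which are induced within minutes of stimulation or tissue dissociation, had a median interaction of 0.42, with -0.04 in WT and 0.42 in 5XFAD. For CIH in 5XFAD 17 of the 35 were higher at an unadjusted p below 0.05, against 1.86% of all genes, and 0 lower. With 5XFAD NX 4 and 5 left out, these were 10 and 0, against 7.62% and 4.12% of all genes. For the interaction 10 were positive and 1 negative, against 12.2% and 12.1%. The median was 0.35 without 5XFAD NX 4 and 5, and 0.24 without 5XFAD CIH 1, the library with the highest score for these genes (6.622 mean log2 CPM, against 5.572 to 5.962 in the other 5XFAD CIH libraries). The isolation used an enzymatic step, and its part in this result was not tested.

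Zfp36, which encodes a protein that speeds mRNA decay, was at 349, 337, 372, 418 and 530 CPM in WT NX and at 592, 398, 365, 341 and 389 CPM in WT CIH. Among 5XFAD libraries it was at 464, 572, 436, 361 and 357 CPM in NX and at 1150, 555, 747, 552 and 677 CPM in CIH. CIH 1 was highest in both genotypes, and the 5XFAD groups overlapped at NX 2. The interaction was 0.69 ± 0.28 (adjusted p = 0.145), carried by 0.75 ± 0.20 in 5XFAD beside 0.06 ± 0.20 in WT. Junb, an AP-1 subunit, had 0.95 ± 0.33, with 0.68 ± 0.23 in 5XFAD. Without NX 4 and 5 the interactions of Zfp36 and Junb were 0.53 and 0.70. The clock gene Per1 was at 58.6 to 75.2 CPM in 5XFAD NX and 79.6 to 187 CPM in 5XFAD CIH without overlap, and its interaction was 0.73 ± 0.31. Fos was at 234, 116, 111, 90.6 and 69.4 CPM in 5XFAD CIH, with CIH 1 highest, and its interaction was 0.63 ± 0.34 (adjusted p = 0.256).

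Genes of protein folding in the endoplasmic reticulum also included members with higher levels in 5XFAD CIH. Manf, a secreted factor of the unfolded protein response at chr9:106838312-106891979, was at 96.3, 112, 103, 125 and 124 CPM in WT NX and at 106, 71.1, 104, 81.7 and 105 CPM in WT CIH. In 5XFAD it was at 125, 123, 139, 57.9 and 72.8 CPM in NX and at 200, 178, 172, 156 and 148 CPM in CIH. All 5XFAD CIH libraries were above all 5XFAD NX libraries, with NX 4 and 5 lowest, and the WT groups overlapped. The interaction was 0.98 ± 0.26 (adjusted p = 0.117), and 0.67 without NX 4 and 5. CIH in 5XFAD was 0.72 ± 0.19, and 0.41 without these 2 libraries. Creld2, another secreted protein of that response, was at 27.9 to 52.7 CPM in 5XFAD NX and 53.9 to 85.9 CPM in 5XFAD CIH, also without overlap, and its interaction was 0.57 ± 0.23, or 0.40 without NX 4 and 5. Over the 28 unfolded protein and heat shock genes, 11 were higher in 5XFAD CIH at an unadjusted p below 0.05 and 0 lower, against 1.86% and 3.11% of all genes, and 11 and 0 without NX 4 and 5, against 7.62% and 4.12%. For the interaction 6 were positive and 1 negative, where all genes were at 12.2% and 12.1%. The median interaction was 0.29, 0.19 without NX 4 and 5, and 0.14 without 5XFAD CIH 2.

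In 2 of the 15813 genes tested CIH separated the libraries without overlap in opposite directions in the 2 genotypes. Taken by genotype, CIH lay below all NX libraries in 8.58% of genes in WT and 0.525% in 5XFAD. It lay above them in 7.85% in WT and 0.266% in 5XFAD. Whether 2 genes are more than these shares would give was not tested. Msrb2, a mitochondrial methionine sulfoxide reductase at chr2:19371440-19394976, was at 52.3, 55.8, 60.6, 53 and 61 CPM in WT NX and at 52.1, 46, 44.9, 42.5 and 40.4 CPM in WT CIH. In 5XFAD mice it was at 52.9, 51.1, 53.3, 37.2 and 33.8 CPM in NX and at 53.6, 54.2, 58, 60.6 and 62.2 CPM in CIH. The gap was narrow in both, since the highest WT CIH library was at 52.1 against 52.3 CPM for the lowest WT NX library, and the lowest 5XFAD CIH library at 53.6 against 53.3 CPM in NX. The interaction was 0.66 ± 0.17 (adjusted p = 0.117) and 0.46 without 5XFAD NX 4 and 5.

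The other was Zfp652os, a transcript opposite Zfp652 at chr11:95700106-95712754. It was at 3.97, 4.48, 6.04, 5.51 and 4.02 CPM in WT NX and at 3.51, 3.61, 3.21, 3.11 and 2.02 CPM in WT CIH. Among 5XFAD libraries it was at 5.22, 4.17, 4.11, 4.07 and 3.88 CPM in NX and at 6.03, 5.89, 8.71, 6.58 and 8.05 CPM in CIH. NX 4 and 5 lay close to NX 2 and 3 in this gene, and the interaction was 1.35 ± 0.29 (adjusted p = 0.117), and 1.28 without them. Whether reads were counted by strand is not given in the sources used here, so the reads of Zfp652os and of overlapping transcripts of Zfp652 cannot be told apart.

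Interferon response genes had a median near 0 with 20 libraries. Of 50 members, 21 were above 0 and 29 below. At an unadjusted p below 0.05, 8 were positive and 9 negative, against 12.2% and 12.1% of all genes. The median was -0.08, with CIH medians of -0.21 in WT and -0.19 in 5XFAD. The median interaction was -0.21 without WT NX 5 and -0.21 without 5XFAD NX 4 and 5. In the latter fit 4 were positive and 8 negative at that level, against 6.52% and 3.84% of all genes. The WT median ran from -0.35 to -0.02 as single libraries were left out. Single members ran from -1.01 to 1.45, and Isg15 and Ifitm3, described next, are from the positive side and do not stand for the list. Isg15 was picked after its value was seen. The ubiquitin-like protein Isg15 was at 5.39, 6.39, 4.77, 9.61 and 10.7 CPM in WT NX and 4.01, 2.82, 3.02, 3.11 and 3.7 CPM in WT CIH, without overlap. In 5XFAD it was at 9 to 22.7 CPM in NX and 11.3 to 24 CPM in CIH, with an interaction of 1.34 ± 0.38 (adjusted p = 0.117), or 1.06 without NX 4 and 5. The antiviral membrane protein Ifitm3 was at 31.1, 37.5, 25.5, 66.1 and 71.7 CPM in WT NX and at 22.9, 20.1, 14.4, 21 and 18.8 CPM in WT CIH. Its 5XFAD libraries were at 175, 163, 164, 63.5 and 58.7 CPM in NX and 89.2, 80.1, 107, 164 and 194 CPM in CIH. Levels in WT did not overlap and those in 5XFAD did, and the interaction was 1.28 ± 0.47 (adjusted p = 0.129), or 0.85 without NX 4 and 5.

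Ifitm2 and Ifitm3 are among 7 genes that the study names in males, a list chosen on these samples, so their direction is not independent evidence. Ifitm2 had an interaction of 1.33 ± 0.57 and Ifitm6, another family member, 0.06 ± 0.80, or 0.90 and -0.53 without 5XFAD NX 4 and 5, with Ifitm6 lower under CIH in both genotypes (-1.60 ± 0.56 in WT and -1.54 ± 0.57 in 5XFAD). The chemokines Cxcl10 and Ccl5 had 0.93 ± 0.52 and 1.45 ± 0.65, or 0.57 and 0.98 without those libraries. Tcap, a titin-binding protein of the muscle Z-disc, was at 0.204 to 0.862 CPM in WT NX and 0.193 to 0.474 CPM in WT CIH. In 5XFAD, Tcap was at 11.7, 8.42, 15.2, 7.6 and 6.84 CPM in NX and at 22.1, 17.4, 24.4, 19.4 and 26.8 CPM in CIH, without overlap. Its interaction was 1.30 ± 0.47 (adjusted p = 0.129), with 1.15 ± 0.26 in 5XFAD, and no more than 15 reads in any WT NX library. Xlr3a, an X-linked lymphocyte-regulated gene, was at 0.102, 0, 0.0408, 0 and 0.115 CPM in WT NX and at 2.38, 0.0494, 1.93, 1.16 and 2.54 CPM in WT CIH, with WT CIH 2 among the NX values. It had at most 2 reads in any WT NX library, under the floor of 3 counts, so its fitted difference is not given.

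HIF targets had a median near that of all genes. Of 41 tested, 27 were above 0 and 14 below. At an unadjusted p below 0.05, 8 were positive and 4 negative, against 12.2% and 12.1% of all genes. The median interaction was 0.13, 0.21 without 5XFAD NX 3 and 0.05 without 5XFAD NX 4 and 5. It was -0.04 with library size scaling alone, where that of all genes tested went from -0.035 to -0.211. The CIH medians of HIF targets were -0.14 in WT and 0.03 in 5XFAD, the latter -0.06 without 5XFAD CIH 5. The 2 members with the highest mean CPM, Aldoa and Pkm, encode glycolytic enzymes, and both were positive. Aldoa, an aldolase, was at 362, 445, 406, 529 and 463 CPM in WT NX and at 337, 318, 290, 254 and 255 CPM in WT CIH, without overlap. Its 5XFAD levels were 1350, 1380, 1540, 725 and 806 CPM in NX and 1270, 1210, 1190, 1380 and 1910 CPM in CIH, with NX 4 and 5 below the rest, and the interaction was 0.86 ± 0.26 (adjusted p = 0.117), or 0.57 without those libraries. Pkm, a pyruvate kinase, had 0.58 ± 0.19, with -0.45 ± 0.14 in WT and 0.13 ± 0.13 in 5XFAD, and Ldha, a lactate dehydrogenase subunit, had 0.49 ± 0.24, or 0.38 and 0.25 in the smaller fit. Vegfa, the angiogenic growth factor, was at 3.56, 3.29, 4, 5.98 and 5.23 CPM in WT NX and at 4.89, 5.19, 8.16, 8.01 and 10.6 CPM in WT CIH. In 5XFAD mice it was at 8.75, 15, 17.4, 13 and 19.6 CPM in NX and 17.1, 14, 12.6, 11.6 and 14.9 CPM in CIH. WT CIH 1 and 2 overlapped with NX, and the 5XFAD groups overlapped throughout. Its interaction of -0.81 ± 0.33 (adjusted p = 0.152) came with 0.74 ± 0.24 in WT and -0.07 ± 0.23 in 5XFAD, in the direction opposite to the list's median. The glucose transporter Slc2a1 had -0.41 ± 0.18 in WT and -0.23 ± 0.18 in 5XFAD, and the mitophagy receptor Bnip3 -0.26 ± 0.19 and -0.06 ± 0.18. Hif1a itself was at 93.9 to 102 CPM in WT NX and 87.7 to 105 CPM in WT CIH, with -0.01 ± 0.11. Among 5XFAD libraries it was at 388, 462, 443, 555 and 588 CPM in NX and 415, 403, 372, 351 and 475 CPM in CIH, with -0.27 ± 0.11, and NX 4 and 5 held the highest levels. The interaction was -0.26 ± 0.15, or -0.09 without those libraries, where CIH in 5XFAD was -0.10. The 15 genes of the HIF machinery had a median of -0.26, which was -0.09 without WT NX 1 and -0.12 without 5XFAD NX 4 and 5. At an unadjusted p below 0.05, 2 of them were positive and 2 negative.

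Abundant members of the main lists were taken by mean CPM rather than by interaction, each with its interaction and, in parentheses, the value without 5XFAD NX 4 and 5. The ribosomal stalk protein Rplp1 had 0.93 ± 0.37 (0.54). The complex I subunit Ndufs7 had 0.67 ± 0.30 (0.32), and Atp5a1 of ATP synthase 0.36 ± 0.13 (0.23). Of the proteasome, Psmc3 had 0.51 ± 0.21 (0.23) and Psmd2 0.21 ± 0.12 (0.23). The lysosomal proteases Ctsd and Ctss had 0.74 ± 0.25 (0.47) and 0.54 ± 0.20 (0.34). In the homeostatic list, the protease inhibitor Cst3 had 0.96 ± 0.30 (0.62) and the growth factor receptor Csf1r 0.20 ± 0.12 (0.16). Among chromatin regulators, Arid1a, of a remodeling complex, had -0.26 ± 0.23 (0.07) and the histone methyltransferase Kmt2d -0.41 ± 0.39 (0.09). The ubiquitin ligases Herc2 and Huwe1 had -0.80 ± 0.34 (-0.18) and -0.82 ± 0.36 (-0.13). Of the splicing list, the RNA helicase Ddx5 had -0.51 ± 0.19 (-0.23) and the speckle protein Srrm2 -0.47 ± 0.36 (0.09). The chaperones Calr and Hspa8 had 0.46 ± 0.19 (0.25) and 0.27 ± 0.24 (0.12).

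For the remaining lists, members are counted at an unadjusted p below 0.05, where 12.2% of all genes were positive and 12.1% negative, and each median interaction is followed by its value without 5XFAD NX 4 and 5 and by the value that moved most when a single library was left out. Inflammatory cytokines and chemokines had 0.43 (9 positive and 1 negative of 25), 0.39 without 5XFAD NX 4 and 5 and 0.50 without WT NX 2. The integrated stress response was at 0.33 (7 positive and 2 negative of 26), 0.08 without 5XFAD NX 4 and 5 and 0.21 without 5XFAD CIH 5. Cholesterol synthesis had 0.10 (0 positive and 3 negative of 23), 0.05 without 5XFAD NX 4 and 5 and 0.00 without WT NX 4. For amino acid transporters the median was -0.26 (0 positive and 3 negative of 25), -0.02 without 5XFAD NX 4 and 5 and -0.16 without 5XFAD NX 5. It was 0.12 with the gene length trend removed, where the median of all genes tested was 0.112. The next 4 lists changed sign under at least 1 of these omissions. Toll-like receptors were at -0.09 (1 positive and 1 negative of 19), 0.01 without 5XFAD NX 4 and 5 and 0.01 without 5XFAD NX 3. The cell cycle was at -0.08 (2 positive and 2 negative of 30), -0.03 without 5XFAD NX 4 and 5 and 0.14 without 5XFAD NX 2. The circadian clock was at -0.06 (4 positive and 2 negative of 17), 0.16 without 5XFAD NX 4 and 5 and 0.13 without 5XFAD NX 4. Histone genes were at 0.02 (0 positive and 0 negative of 12), -0.13 without 5XFAD NX 4 and 5 and -0.25 without WT NX 5. The X-linked lymphocyte-regulated genes, at levels of few reads, had -1.22 (1 positive and 2 negative of 6), -1.02 without 5XFAD NX 4 and 5 and -1.97 without 5XFAD CIH 4.

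The sign of the interaction varied with gene length as the count table gives it. In 4 bins of equal size, from 48 to 2187, 2189 to 3851, 3852 to 6200 and 6203 to 123179 bases, the median interaction was 0.38, 0.12, -0.09 and -0.34. The WT medians were -0.33, -0.13, 0.04 and 0.22, and the 5XFAD medians 0.08, 0.02, -0.03 and -0.10. Without 5XFAD NX 4 and 5 the 5XFAD medians were -0.06, -0.07, 0.00 and 0.11, in the direction of WT, and the interaction medians 0.28, 0.08, -0.04 and -0.10. Positive interactions at an unadjusted p below 0.05 made up 24.5% of the shortest and 2.68% of the longest bin, and negative interactions 4.25% and 26.6%. When the trend of log2 difference on length was removed, the median interaction of all genes tested moved from -0.035 to 0.112. The median of ribosomal proteins was then 0.95 (1.01 before), of DAM genes 0.71 (0.71) and of complex I 0.69 (0.82). The medians of chromatin regulators, large ubiquitin ligases and splicing genes were then -0.09, -0.22 and -0.21.

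**Figure D5:**
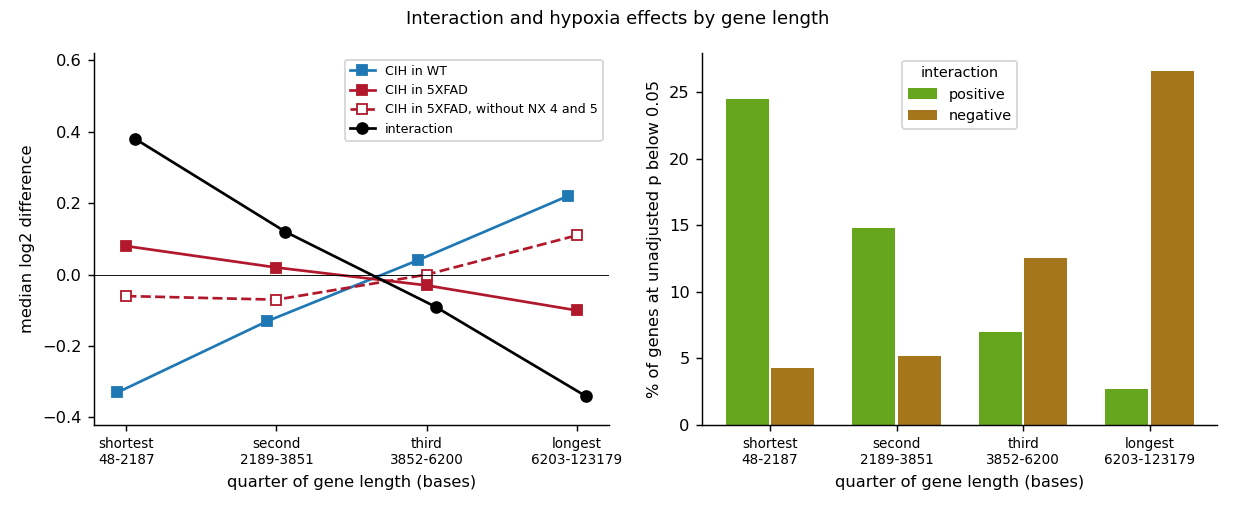
Left, median interaction and CIH difference (log2, y axis) in 4 equal bins of gene length (bases, x axis). Right, percent of genes in each bin with a positive or a negative interaction at an unadjusted p below 0.05. The interaction goes from 0.38 in the shortest to -0.34 in the longest bin, while the WT median goes from -0.33 to 0.22.

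Markers of other cells moved with the groups to some extent. The 11 astrocyte markers had a median interaction of -1.44 (1.01 in WT, -0.37 in 5XFAD), with 10 below 0 and 1 above. At an unadjusted p below 0.05, 5 of them were negative, against 12.1% of all genes. These markers summed to 180 to 231 CPM in WT NX, 181 to 288 in WT CIH, 411 to 1120 in 5XFAD NX and 250 to 694 in 5XFAD CIH. The median interaction was -1.94 without WT NX 5 and -1.82 without 5XFAD NX 4 and 5. With single libraries left out, the WT median ran from 0.61 to 1.58 and the 5XFAD median from -0.62 to -0.12. Gfap, the astrocyte filament protein, was at 1.73 CPM or less in WT and at 235, 748, 525, 192 and 236 CPM in 5XFAD NX and 102, 301, 218, 424 and 390 CPM in 5XFAD CIH. The 12 oligodendrocyte markers, at a median of -0.68, summed to 189 to 351 CPM in WT NX, 200 to 295 in WT CIH, 285 to 615 in 5XFAD NX and 249 to 469 in 5XFAD CIH. Without WT NX 5 the oligodendrocyte median was -1.05. The 13 neutrophil markers summed to 274 to 1370 CPM in WT NX, 128 to 370 in WT CIH, 80.9 to 1470 in 5XFAD NX and 64.6 to 239 in 5XFAD CIH, with median CIH differences of -1.43 in WT and -1.72 in 5XFAD. Without 5XFAD NX 2 the 5XFAD median was -0.53, and the median interaction went from -0.29 to 0.85.

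For the other marker lists the median interaction is followed by the members positive and negative at an unadjusted p below 0.05 (12.2% and 12.1% of all genes), by its value without 5XFAD NX 4 and 5, and by the value that moved most with a single library left out. Neuron markers had -0.15 (1 positive and 0 negative of 13), -0.38 without 5XFAD NX 4 and 5 and 0.29 without 5XFAD NX 2. Monocyte markers had 0.31 (1 positive and 0 negative of 8), 0.20 without 5XFAD NX 4 and 5 and 0.76 without 5XFAD NX 2. Border macrophage markers had 0.28 (2 positive and 0 negative of 11), 0.31 without 5XFAD NX 4 and 5 and 0.46 without 5XFAD CIH 3. Endothelial markers had -0.32 (1 positive and 0 negative of 11), -0.51 without 5XFAD NX 4 and 5 and -0.61 without WT NX 5, and mural markers -0.35 (0 positive and 0 negative of 7), -0.32 without 5XFAD NX 4 and 5 and -0.81 without WT NX 5. Erythroid markers had 1.43 (4 positive and 0 negative of 5), 0.96 without 5XFAD NX 4 and 5 and 1.09 without WT NX 5. For T and NK cell markers the values were 0.47 (1 positive and 0 negative of 9), -0.10 without 5XFAD NX 4 and 5 and 0.84 without 5XFAD NX 2, and for B cell markers 0.81 (2 positive and 0 negative of 5), 0.31 without 5XFAD NX 4 and 5 and 1.29 without 5XFAD NX 2. Ependymal and choroid plexus markers had 0.16 (0 positive and 0 negative of 5), 0.15 without 5XFAD NX 4 and 5 and 0.46 without 5XFAD NX 5.

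By CIH difference, endothelial markers had medians of -0.71 in WT and -1.14 in 5XFAD, with 1 and 4 of 11 lower at an unadjusted p below 0.05, against 15.1% and 3.11% of all genes. Mural markers had -0.71 in WT and -0.94 in 5XFAD, with 0 and 3 of 7 lower. Both lists thus had negative medians in both genotypes. Endothelial markers summed to 526 to 963 CPM in WT NX, 452 to 521 in WT CIH, 757 to 1350 in 5XFAD NX and 958 to 1500 in 5XFAD CIH, and mural markers to 21.7 to 160 CPM in WT NX, 20.9 to 71.4 in WT CIH, 111 to 130 in 5XFAD NX and 83.2 to 121 in 5XFAD CIH. Bsg is the most abundant endothelial marker, and the sum did not follow the median in 5XFAD. The medians were -0.34 in WT and -0.25 in 5XFAD for neuron markers, -0.67 in WT and -0.29 in 5XFAD for monocyte markers and -0.31 in WT and 0.17 in 5XFAD for border macrophage markers. For erythroid markers they were -0.82 in WT and 0.56 in 5XFAD, and for T and NK cell markers -0.32 in WT and 0.40 in 5XFAD. For B cell markers they were -0.51 in WT and 0.13 in 5XFAD, and for ependymal and choroid plexus markers -0.03 in WT and 0.18 in 5XFAD. With single libraries left out, the 5XFAD median ran from -0.10 to 0.78 for B cell and from -0.63 to 0.02 for monocyte markers. The ependymal medians ran from -0.21 to 0.13 in WT and from -0.10 to 0.32 in 5XFAD. Without 5XFAD NX 4 and 5 the 5XFAD median was -0.24 for B cell and -0.09 for ependymal markers. Neuron markers summed to at most 67.7 CPM and T and NK cell markers to at most 23.3 CPM in any library, with no list summing to 0 in a library. The B cell sum was largely the immunoglobulin gene Ighm. The part of these cells in the interactions above was not tested.

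The genes with the largest fitted interactions among the likelihood ratio calls were at means of 0.263 to 2.12 CPM over the 20 libraries. The 5 most negative were Zfp973, Gm44914, Gm45413, Gm43690 and Olfr114, and the 5 most positive AC154912.4, Gm43343, Gm6988, Gm21399 and 1700109G14Rik. Zfp973, a zinc finger gene, had at most 2 reads in a WT NX library and 23 in WT CIH, and at most 20 in 5XFAD NX and 1 in 5XFAD CIH. Olfr114, an olfactory receptor gene, had 0 reads in all WT NX libraries. Fitted differences of such genes depend on the prior count and are not given. Of the 95 positive calls 66 were protein-coding and 20 processed pseudogenes, and of the 80 negative calls 55 were protein-coding and 18 lincRNA, antisense or TEC genes. Processed pseudogenes were 21.1% of the positive calls and 4.21% of all genes tested, and their reads can be shared with the parent gene.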

How the data were processed

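Total RNA from CD11b+ cells of the cerebrum was sequenced as mRNA libraries. The authors aligned the reads with HISAT2 to GRCm38/mm10 (per the submitters' processing notes, versions not given in the sources used here) and deposited raw gene counts and FPKM for the male libraries. FPKM as deposited by the authors equal the count divided by gene length and a scaled library total, and served an alternative only. The male table has no unused sample columns (0), and the female tables were not analysed here.

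Genes above 1 CPM in at least 3 of the 20 male libraries were kept (15813 of 54532). Counts were scaled by TMM and fitted in 1 model with 4 group means by the quasi-likelihood test of edgeR 4.0.16 (R 4.3.3), with Benjamini-Hochberg adjustment over all genes. A call needed a false discovery rate below 0.05 and a log2 difference beyond 1. Alternatives were the edgeR likelihood ratio test, DESeq2 1.42.0, limma 3.58.1 on log2(FPKM + 1) and log2(FPKM + 0.1), other scalings and filters, a replicate block, and each library left out. The scripts were tested on simulated data.

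The genes and lists, and the rule for naming genes (leaders by size and by p among calls, the 2 members of highest mean CPM of each list without a call, and the 7 genes the study names), were chosen with earlier results of these data known. As the quasi-likelihood test called no gene, leaders were ranked without the call. The text gives values for a subset of the list members so named, and other members were chosen after their values were seen. Same-numbered libraries did not deviate together in a regular way, so the numbers were not taken as pairs. Promoters were read from RefSeq sequences on GRCm38.p6. Depth was 13457293 to 23095627 counts per library. The 40 pairs of libraries within groups all differed by more than counting noise.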

Additional observations from a re-analysis of the deposited data

Results flagged for a closer look

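In 92 checks of 1 group of 5 libraries for a gene or score, 3 held a library farther from the rest than Dixon's limit allows, where chance gives about 1 in 20. Zfp36 was at 592 CPM in WT CIH 1, against 341 to 398 CPM in the other WT CIH libraries. Zfp652os was at 5.22 CPM in 5XFAD NX 1, against 3.88 to 4.17 CPM in the other 4. LincRNA, antisense and TEC genes took 0.947% of the counts of WT NX 1, against 0.686% to 0.739% in the other WT NX libraries. Msrb2 (interaction 0.66) and Zfp652os (interaction 1.35) were noted because all WT CIH libraries lay below all WT NX libraries and all 5XFAD CIH libraries above all 5XFAD NX libraries. Their interactions had an adjusted p of 0.117 in edgeR's quasi-likelihood test, which is above the threshold. In the edgeR likelihood ratio test and DESeq2 the adjusted p was 0.0222 and 0.0101 for Zfp652os, which both tools thus called, and 0.0445 and 0.0262 for Msrb2, whose log2 difference was below the size limit of 1.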

How the results depend on the processing

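The count of 0 interaction calls by the quasi-likelihood test was 175 by the likelihood ratio test, 381 by DESeq2 and 790 without a filter (195 of them below the CPM filter), and 0 to 478 with each library left out, 478 being without 5XFAD NX 1. Of the 175, 136 were among the 381 of DESeq2 (77.7% and 35.7%), and 160 among the 478 (91.4% and 33.5%). For CIH in WT the 0 became 225 and 183 by those tools, 374 without a filter, 74 with at least 10 counts in every library, 376 with the WT groups alone, and 0 to 162 with each library left out (83 without WT CIH 1, 107, 48, 135 and 162 without 5XFAD NX 1, 3, 4 and 5, and 93 without 5XFAD CIH 5). For CIH in 5XFAD it was 40 without a filter and 2 by limma on log2(FPKM + 1), and stayed 0 in the likelihood ratio test and DESeq2. Without 5XFAD NX 4 and 5 the likelihood ratio test called 1, 436 and 67 genes for the interaction, WT and 5XFAD, and the quasi-likelihood test 0, 307 and 0. The cause of these differences was not tested. The replicate block gave 0, 0 and 0 calls. Correlations of same-numbered libraries ran from -0.494 to 0.303, with 9 of 30 over 0.1, so no pairing was read from them. Library size scaling alone moved the median interaction of all genes from -0.035 to -0.211. Of 153 genes followed, 30 changed sign under some alternative, and none of the 16 followed in most detail did (Mrgpre, Capg, Cd52, Lsp1, Lgals3, Apoe, Rplp0, Zbtb18, Satb1, Styx, Malat1, Msrb2, Zfp652os, Manf, Zfp36 and Tcap). Genes near 1 CPM rest on 13 to 23 reads.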
